A study of Mus musculus with 9 samples.

Results

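Lewis lung carcinoma (LLC) cells, a mouse lung tumour line of strain C57BL, were compared after culture in medium from tunicamycin-treated macrophages and after culture in medium from macrophages kept without the drug. The macrophages were the kind labelled GM-BMDM, a bone-marrow-derived macrophage culture. They had received tunicamycin for 12 h or 0 h, were washed with buffer, and then conditioned fresh medium with serum for 16 h. LLC cells were cultured in that medium for 24 h. The first kind of medium is called stressed GM medium here and the second unstressed GM medium, and each was represented by 1 LLC library. The comparison was made over the 11190 of 21936 genes in the LLC table that had a mean of at least 1 CPM (read counts scaled to the size of the library) in the 5 LLC libraries. The other 3 LLC libraries were untreated cells and cells in unstressed or stressed medium of M-BMDM, a second kind of bone-marrow-derived macrophage. No allele or transgene was labelled, and the sources used here do not say how the untreated cells were fed. What the media held, including any tunicamycin still present, was not measured in the data used here.

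Tunicamycin blocks the first step of N-linked glycosylation, so that proteins misfold in the endoplasmic reticulum (ER). Cells answer misfolded ER protein through a set of sensors together called the unfolded protein response. ATF6 and the IRE1-XBP1 branch switch on ER chaperones and the machinery of ER-associated degradation (ERAD), which returns misfolded proteins to the cytosol. The PERK branch phosphorylates eIF2 and raises translation of ATF4, which drives amino acid transport and synthesis genes, CHOP (Ddit3) and feedback regulators; this part is shared with other stresses and is called the integrated stress response. NF-kB controls many chemokine and acute-phase genes. The series' title concerns the passing of ER stress from macrophages to tumour cells, and this pair of libraries asks how the tumour cells' RNA differed when the GM-BMDM that made the medium had been stressed.

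The 5 LLC libraries held 15020068 to 17128471 assigned reads, 15423518 of them with unstressed and 16027498 with stressed GM medium. The 10 most abundant genes took 5.37% to 6.11% of reads and mitochondrial mRNAs 2.2% to 2.37%. Each group was 1 library, so a difference between the 2 GM-medium libraries has no replicate check and no p-value. Folds are CPM ratios with exact 95% intervals, which hold counting error alone and treat each read as an independent molecule. Of 20 macrophage markers, 4 passed the minimum, and their list summed to 17.1 CPM with unstressed and 31.9 CPM with stressed GM medium, against at least 41160 CPM in macrophage libraries of the same series. Ptprc, Adgre1, Itgam, Tyrobp and C1qa were at 0 in all 5 LLC libraries. The label of a lung epithelial tumour was checked too. Of 11 epithelial markers 3 passed the minimum: Krt8 (494 and 424 CPM with unstressed and stressed GM medium), Krt18 (32.0 and 29.1 CPM) and Ocln (5.26 and 6.36 CPM). Of 10 alveolar markers 4 passed it: Ager, Foxa2, Hopx and Napsa, at 5.98 CPM or less in either library. Epcam, Cdh1 and Nkx2-1, which also mark epithelium and lung, had at most 3 counts in any LLC library. In bulk RNA, fewer cells of a type and less RNA per cell cannot be told apart.

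With stressed GM medium 44 genes (0.393% of those compared) were higher by 2-fold or more and 14 (0.125%) were lower by that factor, 58 in all (0.518%), counting a difference of 1 in log2(CPM + 1). The median difference over all genes was -0.003, and the 5th and 95th percentiles were -0.44 and 0.37, so most genes differed little between the 2 libraries. The counting interval of the fold had its nearer bound at 2-fold or beyond for 31 of the 44 and 3 of the 14. By 4-fold or more 10 genes were higher and 0 lower. Just inside the threshold stood Dnmt3l, Dennd2d, Csn3 and Lvrn (differences of 1.0 to 1.01) and Ankrd35 (-1.01). Just outside stood Tmem132c (0.99), Rnf223 (0.98), Fkbp11 (0.98), Fxyd1 (-0.99) and Coro6 (-0.99).

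**Figure D1:**
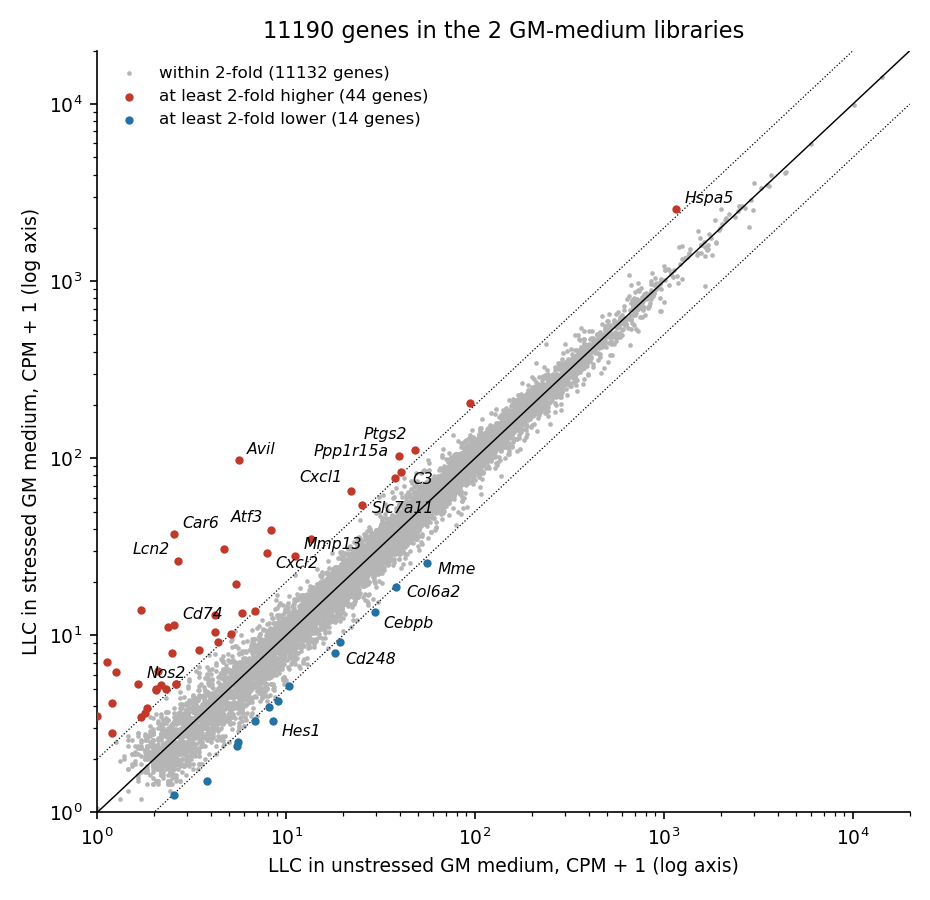
CPM + 1 of each of the 11190 genes in the library with unstressed GM medium (x axis) and with stressed GM medium (y axis), both on log axes, 1 point per gene; the solid line marks equal levels and the dotted lines a log2 difference of 1. Red points are the 44 genes at least 2-fold higher and blue points the 14 at least 2-fold lower; Hspa5 is the most abundant gene past 2-fold, and Avil, Car6 and Lcn2 lie farthest above the line.

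Nearly all ER chaperone and ERAD genes read higher with stressed GM medium. Of 27 members compared, 26 were above 0 and 1 below (all genes: 49.2% above), with a median difference of 0.36, and 1 member, Hspa5, was past 2-fold. Hspa5 encodes BiP, the main Hsp70 chaperone of the ER, which also binds its stress sensors. It read 985 CPM in untreated cells, 1158 with unstressed GM medium, 2555 with stressed GM medium, 1206 with unstressed M medium and 2907 with stressed M medium. Both stressed-medium libraries were thus above the other 3, and the GM fold was 2.21 (2.17 to 2.25). Per transcript length, Hspa5 went from 273 to 598 FPKM between the GM-medium libraries.

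Part of the promoters of these genes holds the ER stress element, the sequence through which ATF6 and XBP1 act together with NF-Y, searched here on both strands as CCAAT, any 9 bases, then CCACG. It was found in the 300 bases around the start site (250 before to 50 after) in 8 of 23 list members matched to the RefSeq promoter table of GRCm38.p6 (34.8%), and in 15 of 8999 matched genes of the whole comparison (0.167%). The 8 were Calr, Canx, Creld2, Dnajc3, Hsp90b1, Hspa5, Pdia6 and Syvn1. The list names genes of a pathway that acts through this element, so its share is not a result of this comparison. The 8 are also counted among the 15. A match is a description of letters and does not show binding. The 250 bases before the start site are shown for 3 members that differed by at least 1.6-fold, in the direction of transcription, with the element in capitals; a reverse-strand match reads CGTGG first.

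Hspa5: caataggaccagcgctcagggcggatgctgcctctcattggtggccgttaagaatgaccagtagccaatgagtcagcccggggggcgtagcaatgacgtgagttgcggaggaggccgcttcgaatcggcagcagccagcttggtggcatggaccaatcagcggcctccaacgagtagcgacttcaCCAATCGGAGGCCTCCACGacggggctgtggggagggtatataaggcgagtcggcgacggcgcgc
Hsp90b1: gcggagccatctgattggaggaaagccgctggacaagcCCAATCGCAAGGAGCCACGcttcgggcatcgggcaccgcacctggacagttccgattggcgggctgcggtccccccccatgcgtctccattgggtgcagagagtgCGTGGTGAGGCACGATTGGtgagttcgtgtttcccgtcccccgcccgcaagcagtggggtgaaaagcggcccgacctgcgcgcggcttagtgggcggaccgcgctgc
Creld2: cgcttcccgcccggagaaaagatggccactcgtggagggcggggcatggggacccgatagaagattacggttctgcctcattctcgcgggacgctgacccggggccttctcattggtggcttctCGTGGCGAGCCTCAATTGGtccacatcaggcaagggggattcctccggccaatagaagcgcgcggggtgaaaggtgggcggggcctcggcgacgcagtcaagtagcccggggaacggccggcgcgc

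The Hspa5 window is chr2:34771840-34772089 on the plus strand, with the element 65 to 47 bases before the start site. The window of Hsp90b1 is chr10:86705445-86705694 on the minus strand and holds the element on both strands, 212 to 194 and 107 to 89 bases upstream. That of Creld2 is chr15:88819396-88819645 on the plus strand, with a reverse match 126 to 108 bases upstream.

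Hsp90b1, which encodes the ER chaperone GRP94, read 599 CPM in untreated cells, 651 and 1089 with unstressed and stressed GM medium, and 697 and 1211 with the M media (GM fold 1.67, 1.63 to 1.71). Hyou1, a nucleotide exchange factor and large Hsp70 of the ER, read 271, 236, 443, 242 and 479 CPM in the same order (1.87-fold, 1.80 to 1.95). The stress-inducible Sdf2l1, a partner of BiP and its cochaperones, read 26.5, 35.5, 63.2, 36.5 and 74.6 CPM (1.78-fold, 1.60 to 1.98). In all 3 genes the stressed libraries of both media lay above every other library. Creld2, a disulphide isomerase family member, was 1.63-fold higher (1.47 to 1.82), Calr, the lectin chaperone calreticulin, 1.42-fold (1.38 to 1.46) and Manf, a secreted ER-stress protein, 1.41-fold (1.32 to 1.51). The ERAD genes Sel1l (1.47-fold), Derl1 (1.34-fold), Herpud1 (1.29-fold, 86.3 to 111 CPM) and Syvn1 (1.28-fold) were higher as well. Among the sensors, Atf6 was 1.33-fold and Ern1, which encodes IRE1, 1.09-fold higher. Eif2ak3, which encodes PERK, was the member below 0, at 84.0 and 74.4 CPM. Xbp1 mRNA read 154 and 178 CPM (1.16-fold, 1.09 to 1.22); its spliced form cannot be read from gene counts. Both stressed-medium libraries stood above the other 3 for 25 of the 27 members, against 20% of all genes.

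**Figure D2:**
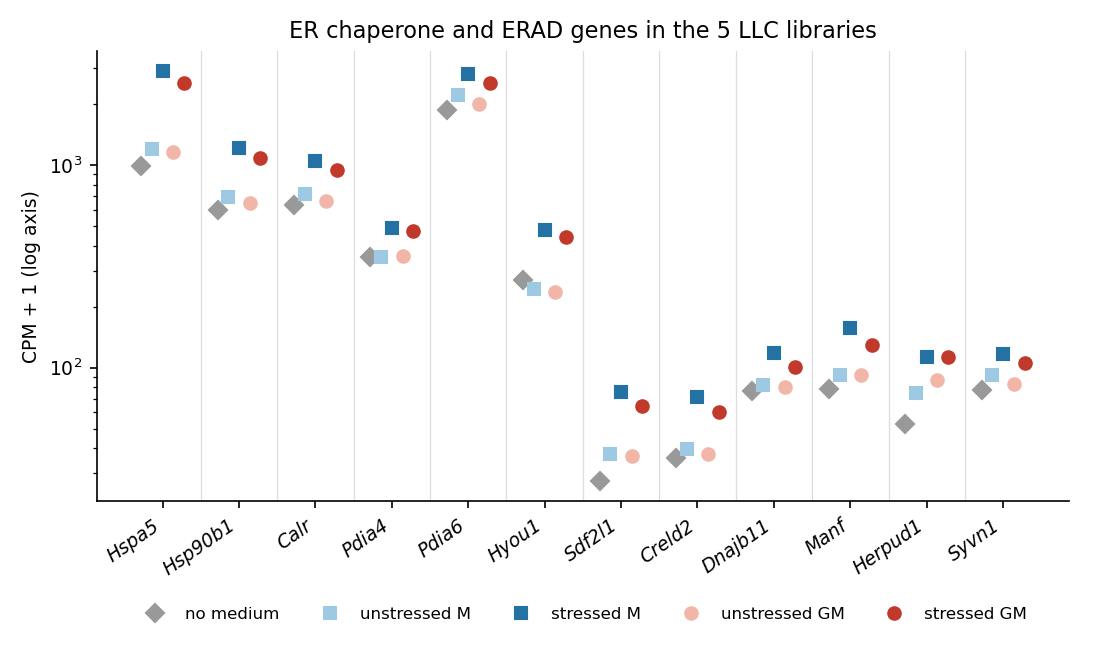
CPM + 1 (log axis) of 12 ER chaperone and ERAD genes in the 5 LLC libraries, 1 symbol per library, with no replicates and so no error bars. For each gene shown, the dark symbols (stressed media) lie above the pale and grey ones (unstressed media and no medium).

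The N-glycosylation list, the machinery that tunicamycin inhibits, differed less. Of 20 genes compared, 18 were above 0 (all genes: 49.2%), with a median of 0.18, and 0 were past 2-fold (all genes: 0.518%). Alg11 (1.34-fold) and Alg9 (1.31-fold), mannosyltransferases of the lipid-linked precursor, and Rpn1 (1.24-fold, 227 to 282 CPM), a subunit of the oligosaccharyltransferase, stood highest. Dpagt1, the direct target of tunicamycin, read 32.4 and 33.0 CPM, with an interval of the fold that included 1 (0.899 to 1.153).

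The integrated stress response list was split. Of 29 members 3 were at least 2-fold higher (all genes: 0.393%), 1 at least 2-fold lower (0.125%) and 16 above 0 (49.2%), with a median of 0.04. Atf3, a transcriptional regulator of the ATF family induced by many stresses, read 7.57 CPM in untreated cells, 7.34 and 38.3 with unstressed and stressed GM medium, and 7.55 and 43.4 with the M media. The 3 libraries without stressed medium lay close together and both stressed ones well above them (GM fold 5.21, 4.26 to 6.43). Ppp1r15a, whose product GADD34 brings a phosphatase to eIF2 and ends the translational block, read 34.8, 38.5, 102, 35.3 and 118 CPM (2.66-fold, 2.42 to 2.92). Slc7a11, the cystine carrier of system xc-, read 23.8, 24.1, 53.7, 21.9 and 42.9 CPM (2.23-fold, 1.97 to 2.52).

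Other members separated from these 3. The stress-secreted cytokine Gdf15 read 12.0 and 19.4 CPM with unstressed and stressed GM medium (1.62-fold, 1.35 to 1.96). Ddit3, which encodes CHOP, read 18.5 CPM in untreated cells, 30.8 and 40.9 with the GM media, and 32.5 and 46.5 with the M media (1.33-fold, 1.18 to 1.5). Atf4 itself read 852 and 964 CPM (1.13-fold, 1.11 to 1.16), and Trib3, a pseudokinase target of CHOP, read 205 and 213 CPM, with an interval that included 1 (0.99 to 1.09). Of the 29 members 13 were below 0 with stressed GM medium. Chac1, a glutathione-degrading enzyme and late target of the pathway, read 9.62 CPM in untreated cells and 45.3 and 34.0 with the GM media (1.33-fold lower, 1.19 to 1.5). Slc7a5, a transporter of large neutral amino acids, read 712 and 536 CPM (1.33-fold lower), Pck2 186 and 144 CPM and the asparagine synthetase Asns 516 and 449 CPM. Cebpb, a transcription factor of the C/EBP family, was the member past 2-fold below, at 28.6 and 12.6 CPM (2.27-fold lower, 1.92 to 2.70). For 27 of the 29 members the stressed GM library was above the untreated one, against 51.8% of all genes, and Chac1, Slc7a5, Pck2 and Asns were among them. Cebpb overlaps Tmem189 on the opposite strand, and Tmem189 read 22.2 and 24.9 CPM.

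The composite element bound by C/EBP and ATF proteins together, searched as TGATGNAA on both strands, stood in the 300-base window of 8 of 25 matched list members (32%) and in 233 of 8999 matched genes (2.59%). This list too names genes of a pathway that acts through its element, so the share is not a result of this comparison. Members with the element differed in opposite directions: Atf3 and Slc7a11 were past 2-fold higher, and Asns, Chac1 and Pck2 were lower. The 250 bases before the start sites of Atf3 and Slc7a11 are shown because these were the 2 list members past 2-fold with a match, with the element in capitals (TTGCATCA is its reverse).

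Atf3: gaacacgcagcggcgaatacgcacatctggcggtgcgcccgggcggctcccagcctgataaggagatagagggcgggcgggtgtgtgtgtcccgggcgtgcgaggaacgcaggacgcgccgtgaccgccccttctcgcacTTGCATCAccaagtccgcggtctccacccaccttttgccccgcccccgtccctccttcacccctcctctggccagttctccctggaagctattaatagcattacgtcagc
Slc7a11: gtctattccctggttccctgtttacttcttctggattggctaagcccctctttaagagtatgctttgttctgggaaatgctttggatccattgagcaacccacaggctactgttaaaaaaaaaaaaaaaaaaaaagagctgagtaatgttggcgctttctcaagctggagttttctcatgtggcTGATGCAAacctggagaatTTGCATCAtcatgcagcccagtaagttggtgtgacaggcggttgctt

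The Atf3 window is chr1:191183334-191183583 on the minus strand, with a reverse match 110 to 103 bases before the start. The counted Atf3 gene spans chr1:191170296-191218039, so this start lies within the gene, and the window at its upstream end is not shown. That of Slc7a11, chr3:50443614-50443863 on the minus strand, has a forward match 66 to 59 and a reverse match 47 to 40 bases before it.

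NF-kB cytokine and chemokine genes gave the largest share of members past 2-fold. Of 33 listed genes 20 passed the minimum and were compared. Of these 20, 7 were higher by 2-fold or more (all genes: 0.393%) and 0 were lower by as much (0.125%). Nos2 and Saa3, both among the 7, reached the minimum mean only through the stressed GM library. Every other library held at most 0.83 CPM of Nos2 and 1.04 CPM of Saa3, so their place among the 7 is not independent of the filter. Of the same 20, 17 were above 0 (49.2%), and the median was 0.37. Lcn2, the iron-siderophore-binding acute-phase protein lipocalin 2, read 0.461 CPM in untreated cells, 1.69 and 25.4 with unstressed and stressed GM medium, and 1.61 and 11.2 with the M media (GM fold 15, 10.1 to 23.3). The chemokines that attract neutrophils came next. Cxcl2 read 15.5, 6.89, 28.2, 6.06 and 13.9 CPM in the same order (4.09-fold, 3.30 to 5.10). Cxcl1 read 54.8, 21.1, 64.5, 22.0 and 27.7 CPM (3.06-fold, 2.70 to 3.47), and Cxcl5 1.12, 1.49, 6.99, 1.16 and 0.71 CPM (4.68-fold, 2.97 to 7.68). For each of the 3 chemokines the stressed GM library was the highest of the 5, but for Cxcl1 the untreated cells were close below it. Cells in either unstressed medium held less Cxcl1 and Cxcl2 RNA than untreated cells.

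The remaining members past 2-fold were Nos2, the inducible nitric oxide synthase (10 and 68 counts, 6.59-fold, 3.37 to 14.4), Saa3, an acute-phase apolipoprotein (16 and 62 counts, 3.76-fold, 2.14 to 6.97), and Ptgs2, the prostaglandin-forming enzyme COX-2. Ptgs2 read 352 CPM in untreated cells, 47.4 and 110 with the GM media, and 39.2 and 103 with the M media (GM fold 2.33, 2.14 to 2.55). Its level with stressed GM medium was thus above that with unstressed medium and still under that of untreated cells. Ccl2, the monocyte chemokine, had the same order among the untreated and GM libraries, at 219 CPM untreated and 106 and 145 with the GM media (1.37-fold, 1.29 to 1.46). With unstressed and stressed M medium Ccl2 read 83.0 and 81.5 CPM, whereas Ptgs2 was higher with stressed M medium. Feedback genes of the pathway differed little: Nfkbia was 1.12-fold and Nfkb2 1.12-fold higher, and Tnfaip3 read 6.3 and 8.0 CPM with an interval that included 1. Lif read 3.05 and 2.58 CPM (interval 0.54 to 1.31), and Il6 had 1 and 2 counts and was not compared. Outside the list, C3, the central complement component, read 13.6 CPM untreated, 39.8 and 82.7 with the GM media and 12.6 and 11.7 with the M media (GM fold 2.08, 1.89 to 2.29).

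The NF-kB motif, searched on both strands as GGGA, any base, then TTTCC, was in the 300-base window of 5 of 11 matched members (45.5%) and of 43 of 8999 matched genes (0.478%). Since the list names genes under this factor, its share is not a result of this comparison. The 5 members were Csf1, Cxcl1, Cxcl2, Nfkb2 and Nfkbia, of which Cxcl1 and Cxcl2 were past 2-fold. Their 250 bases before the start site follow, with the motif in capitals, because the 2 neighbouring chemokine genes hold the same 10 letters.

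Cxcl1: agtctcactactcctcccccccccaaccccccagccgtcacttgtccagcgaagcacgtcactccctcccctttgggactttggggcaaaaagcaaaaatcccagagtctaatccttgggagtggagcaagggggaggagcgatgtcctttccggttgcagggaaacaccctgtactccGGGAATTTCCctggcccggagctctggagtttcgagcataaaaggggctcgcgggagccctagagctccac
Cxcl2: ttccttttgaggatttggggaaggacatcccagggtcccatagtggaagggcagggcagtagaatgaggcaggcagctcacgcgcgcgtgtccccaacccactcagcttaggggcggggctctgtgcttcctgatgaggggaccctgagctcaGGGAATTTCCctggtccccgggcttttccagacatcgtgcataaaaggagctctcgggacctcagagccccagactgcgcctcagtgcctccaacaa

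The windows lie on the plus strand at chr5:90890995-90891244 for Cxcl1, with the motif 71 to 62 bases before the start, and at chr5:90903649-90903898 for Cxcl2, with it 97 to 88 bases before. Over all 44 genes at least 2-fold higher, 35 matched the promoter table. The ER stress element was in 1 of them, Hspa5 (2.86%, against 0.167% of all matched genes). The composite element was in 5, Atf3, Avil, Bcl2l15, Rbp4 and Slc7a11 (14.3%, against 2.59%). The NF-kB motif was in 2, Cxcl1 and Cxcl2 (5.71%, against 0.478%). Hspa5, Atf3, Slc7a11, Cxcl1 and Cxcl2 are also members of the pathway lists above, whose shares are not results of this comparison. The unfolded protein response element, TGACGTGG, was in 0 of the 35, against 1% of all matched genes, and 0 of the 10 matched lower genes held any of the 4 motifs.

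**Figure D3:**
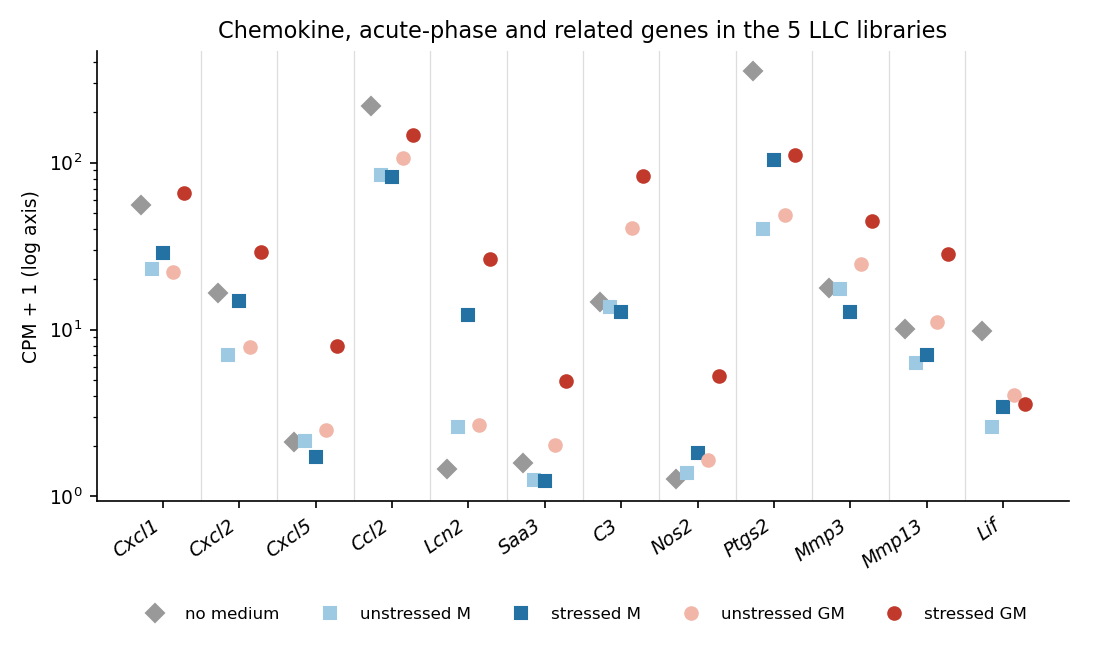
CPM + 1 (log axis) of 12 chemokine, acute-phase, protease and cytokine genes in the 5 LLC libraries, 1 symbol per library. The library with stressed GM medium (dark red) is the highest of the 5 for Cxcl1, Cxcl2, Cxcl5, Lcn2, Saa3, C3, Nos2, Mmp3 and Mmp13, while for Ccl2, Ptgs2 and Lif untreated cells (grey) are highest.

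The largest differences of all, those of Avil and Car6, were in genes on none of the lists used here. Avil, which encodes the actin-binding protein advillin (chr10:127000709-127020994), read 9.75 CPM in untreated cells, 4.61 and 96.7 with unstressed and stressed GM medium, and 9.87 and 103 with the M media (GM fold 21, 16.5 to 27). It overlaps Tsfm on the opposite strand, and since the counting strand was not given, reads of the shared stretch cannot be told apart. Tsfm read 42.6 and 46.3 CPM. Car6, the secreted carbonic anhydrase (chr4:150187015-150201332), read 0.527, 1.56, 36.3, 1.87 and 39.4 CPM (23.3-fold, 15.5 to 36.6). Sspo, which encodes SCO-spondin, read 2.04, 3.70, 29.6, 4.45 and 28.6 CPM (7.99-fold, 6.06 to 10.7). In each of the 3 genes both stressed libraries lay far above the other 3.

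Sh2d6, an SH2-domain gene, was 18-fold higher (11 and 204 counts, 9.84 to 36.6). The stearoyl-CoA desaturase gene Scd3 had 4 and 83 counts (20.1-fold, 7.57 to 75.5), and Otog, which encodes otogelin of the inner ear matrix, 2 and 96 counts (46.5-fold, 12.5 to 390). These 3 ratios rest on few reads in the unstressed library. Atp2a3, the SERCA3 pump that moves calcium into the ER, read 1.36 and 10.2 CPM (7.48-fold, 4.73 to 12.4), Cdsn, which encodes corneodesmosin, 4.42 and 18.6 CPM (4.20-fold), and Sptb, the erythroid beta spectrin, 3.18 and 12.0 CPM (3.76-fold). Cd74, the MHC class II invariant chain, read 0.725 CPM untreated, 1.56 and 10.5 with the GM media and 0.387 and 6.45 with the M media (GM fold 6.70, 4.35 to 10.8). Cd74 is also 1 of the 20 macrophage markers and made up most of the difference in their sum; its class II partners H2-Aa and H2-Eb1 had 0 counts in both GM-medium libraries, H2-Ab1 had 2 and 6, and the part of other cells in the result was not tested. Grem1, a secreted antagonist of BMP ligands, read 12.5 and 34.1 CPM (2.74-fold, 2.32 to 3.24), Areg, the EGF receptor ligand amphiregulin, 3.18 and 9.45 CPM (2.97-fold, 2.14 to 4.19), and Ier3, an immediate-early survival gene, 93.0 and 204 CPM (2.20-fold, 2.06 to 2.34). Gm19410, a predicted gene, had 0 and 40 counts.

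Of the AP-1, EGR and immediate-early list, 17 of 20 genes were above 0 (all genes: 49.2%). Ier3 alone was past 2-fold (all genes: 0.518%), and the median was 0.22. Dusp4, a phosphatase of MAP kinases, was 1.56-fold higher (65.9 and 103 CPM), Fosl1 1.48-fold and Myc 1.40-fold (376 and 525 CPM). Dusp6, another such phosphatase, was 1.23-fold lower (419 and 340 CPM). Among 15 matrix proteases and plasminogen genes 1 was past 2-fold: the collagenase Mmp13 read 9.09 CPM untreated, 10.1 and 27.2 with the GM media and 5.29 and 6.03 with the M media (GM fold 2.68, 2.23 to 3.24). The stromelysin Mmp3 read 16.8, 23.7, 43.9, 16.4 and 11.8 CPM (1.85-fold, 1.63 to 2.11), so the direction with M medium was the opposite. The gelatinase gene Mmp2 (1.60-fold lower) and the inhibitor Timp2 (1.54-fold lower, 285 and 185 CPM) stood on the other side.

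Genes lower with stressed GM medium included several of matrix and signalling. Hes1, the transcriptional repressor that Notch signalling induces (chr16:30064384-30067796), showed the largest negative difference among genes with at least 5 CPM. It read 5.86 CPM in untreated cells, 7.54 and 2.27 with unstressed and stressed GM medium, and 4.45 and 2.60 with the M media (3.32-fold lower in the GM pair, 2.27 to 4.98). Notch3, a receptor gene of that pathway, had 24 and 4 counts in the GM pair but 6 and 17 in the M pair, and was the 1 of the 14 lower genes that was not below 0 with M medium. Cd248, the stromal glycoprotein endosialin, read 4.08, 17.1, 6.93, 14.8 and 7.45 CPM in the order untreated, unstressed and stressed GM, unstressed and stressed M (2.48-fold lower, 1.98 to 3.12). Mme, the cell-surface peptidase neprilysin, read 45.1, 54.8, 24.5, 54.2 and 29.6 CPM (2.24-fold lower, 1.98 to 2.53). For Mme both stressed libraries were below all others, whereas for Cd248 untreated cells were the lowest. The autophagy regulator Trp53inp2 read 18.4 and 8.19 CPM (2.25-fold lower, 1.82 to 2.79).

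The matrix and mesenchymal list was lower on the whole: 17 of 20 genes were below 0 (all genes: 50.8%), 1 was past 2-fold and the median was -0.37. Col6a2, a chain of the microfibrillar collagen VI, read 33.5 CPM untreated, 37.2 and 17.8 with the GM media and 25.9 and 14.8 with the M media (2.1-fold lower in the GM pair, 1.81 to 2.43). Its partner chain Col6a1 read 136 and 78.5 CPM (1.73-fold lower). The fibrillar Col3a1 read 1095 CPM untreated, 1650 and 938 with the GM media and 1441 and 940 with the M media (1.76-fold lower, 1.72 to 1.79). Fibronectin, Fn1, read 662 and 434 CPM (1.53-fold lower), and Vim, the mesenchymal filament vimentin, 2830 and 2025 CPM (1.40-fold lower). Members above 0 included Ccn1 (1.67-fold higher) and Snai2 (1.07-fold higher). Of 22 collagen chains compared, a list drawn up after the values were seen, 17 were below 0, with a median of -0.41. The 5 fibroblast markers that passed the minimum were below 0 as well, with Pdgfra at 105 and 67.6 CPM; the whole list of 10 summed to 271 and 205 CPM, Thy1 was at 0 in all 5 libraries, and its part in the matrix difference was not tested.

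In the cholesterol, glycolysis, hypoxia and fatty acid lists most members were above 0 (all genes: 49.2%) and 0 were past 2-fold (all genes: 0.518%). Scd3, past 2-fold, is on none of these lists. Cholesterol synthesis had 21 of 24 genes above 0 and a median of 0.38. Hsd17b7 (1.72-fold) and Msmo1 (1.64-fold), enzymes of the later steps, were among the highest. Glycolysis had 13 of 16 genes above 0 and a median of 0.17: the glucose carrier Slc2a1 read 176 and 267 CPM (1.51-fold, 1.44 to 1.59), hexokinase 2, Hk2, was 1.26-fold and Ldha, lactate dehydrogenase A, 1.26-fold higher. The hypoxia list had 12 of 16 above 0 and a median of 0.24. The collagen prolyl hydroxylase subunit P4ha2 read 55.4 and 96.2 CPM (1.74-fold, 1.60 to 1.89), the lactate carrier Slc16a3 363 and 543 CPM (1.5-fold) and the ER oxidase Ero1l 348 and 495 CPM (1.42-fold). Vegfa, the angiogenic factor, read 351 and 348 CPM, with an interval that included 1 (0.95 to 1.03). Fatty acid synthesis had 9 of 12 genes above 0 and a median of 0.15.

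The 3 immune recognition lists had 0 members past 2-fold on this scale, which is near the share of all genes (0.518%). Of all genes 49.2% were above 0. Of 8 checkpoint and costimulatory ligands 6 were above 0, with a median of 0.23. The costimulator Tnfsf9 read 2.79 and 5.61 CPM (2.01-fold, 1.38 to 2.96) and Pvr, a ligand of TIGIT, 32.6 and 54.2 CPM (1.67-fold, 1.49 to 1.86). Cd274, which encodes PD-L1, read 6.85 CPM untreated, 6.24 and 7.68 with the GM media and 6.13 and 5.86 with the M media, and the interval of the GM fold included 1 (0.94 to 1.63). Interferon-stimulated genes had 11 of 19 above 0 and a median of 0.06, and MHC class I presentation 9 of 14 and 0.02. H2-D1, a class I heavy chain, read 561 and 568 CPM, and Tap1, a subunit of the peptide transporter, 20.3 and 16.8 CPM (1.21-fold lower). The mitosis list had 19 of 22 genes below 0 (all genes: 50.8%), with a median of -0.14 and none past 2-fold. It was led by the cyclin Ccnb2 (244 and 183 CPM, 1.33-fold lower) and Mki67 (789 and 644 CPM, 1.22-fold lower). For 17 of the 22 the stressed GM library was above the untreated one (all genes: 51.8%).

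**Figure D4:**
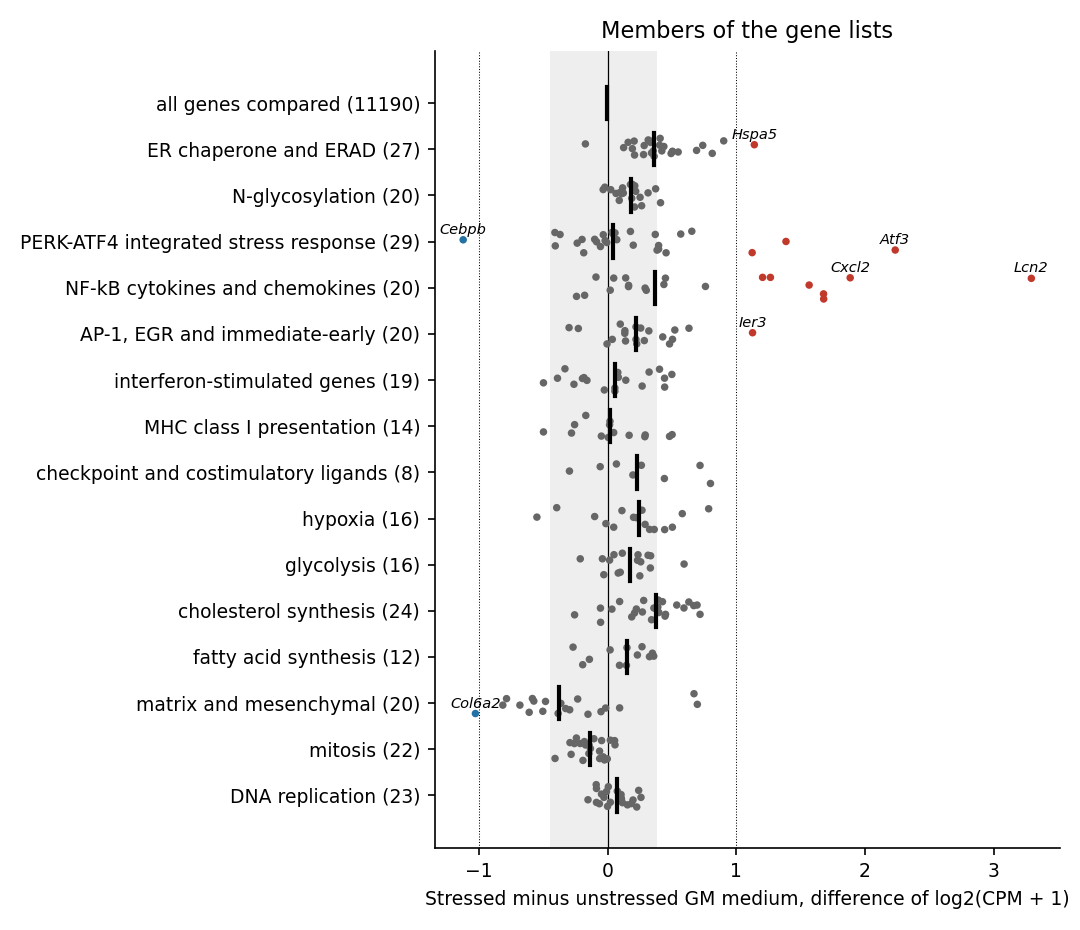
Difference of log2(CPM + 1), stressed minus unstressed GM medium, for the members of 15 gene lists, 1 point per gene (the number compared in parentheses), with small random vertical offsets; the black bar is the list's median, the grey band holds the 5th to 95th percentile of all 11190 genes, and dotted lines mark 2-fold. The ER chaperone members lie to the right of 0 with 1 exception, NF-kB members reach farthest right, and matrix members lie mostly left of 0.

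Medium of M-BMDM gave a second pair of libraries that shares no library with the GM pair. Across the 11190 genes, which are not independent replicates, the differences of the 2 pairs had a Pearson correlation of 0.622 and a Spearman correlation of 0.569. With stressed M medium 46 genes (0.411%) passed the same threshold upward and 16 (0.143%) downward. The higher genes shared 27 members, 61.4% of the GM genes and 58.7% of the M genes, and the lower genes 0. Of the 44 genes higher with GM medium 40 were above 0 with M medium (all genes: 49.7%). Their median M difference was 1.22 (all genes: -0.003). Of the 14 lower genes 13 were below 0 with M medium, with a median of -0.65.

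Single genes ranged from near-equal values to opposite signs. Atf3 differed by 2.24 with GM and 2.38 with M medium, Car6 by 3.86 and 3.81, Hspa5 by 1.14 and 1.27, and Ppp1r15a by 1.39 and 1.71. Of the 7 NF-kB list members past 2-fold with GM medium, 3 were past it with M medium too: Lcn2 differed by 3.29 and 2.23, Cxcl2 by 1.89 and 1.08, and Ptgs2 by 1.21 and 1.37. The other 4 were under it, Cxcl1 at 1.57 and 0.32, Cxcl5 at 1.68 and -0.34, Nos2 at 1.68 and 0.40 and Saa3 at 1.27 and -0.03. With M medium Nos2 had 6 and 14 counts (2.14-fold, 0.77 to 6.79), Saa3 4 and 4 (0.92-fold, 0.17 to 4.92) and Cxcl5 18 and 12 (0.61-fold, 0.27 to 1.34). These M intervals all included 1, and the pseudocount draws the differences of such low genes towards 0. Outside the list, C3 differed by 1.04 and -0.10 and the protease gene Mmp13 by 1.34 and 0.16. The NF-kB list's median was 0.37 with GM and 0.02 with M medium, where 10 of 20 members were above 0 (all genes: 49.7%), while the ER chaperone list's was 0.36 and 0.47. Whether the GM and M differences of a gene or list differ was not tested, since each pair is 1 library against 1. Sptb went the other way, with 1.63 and 2.71.

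**Figure D5:**
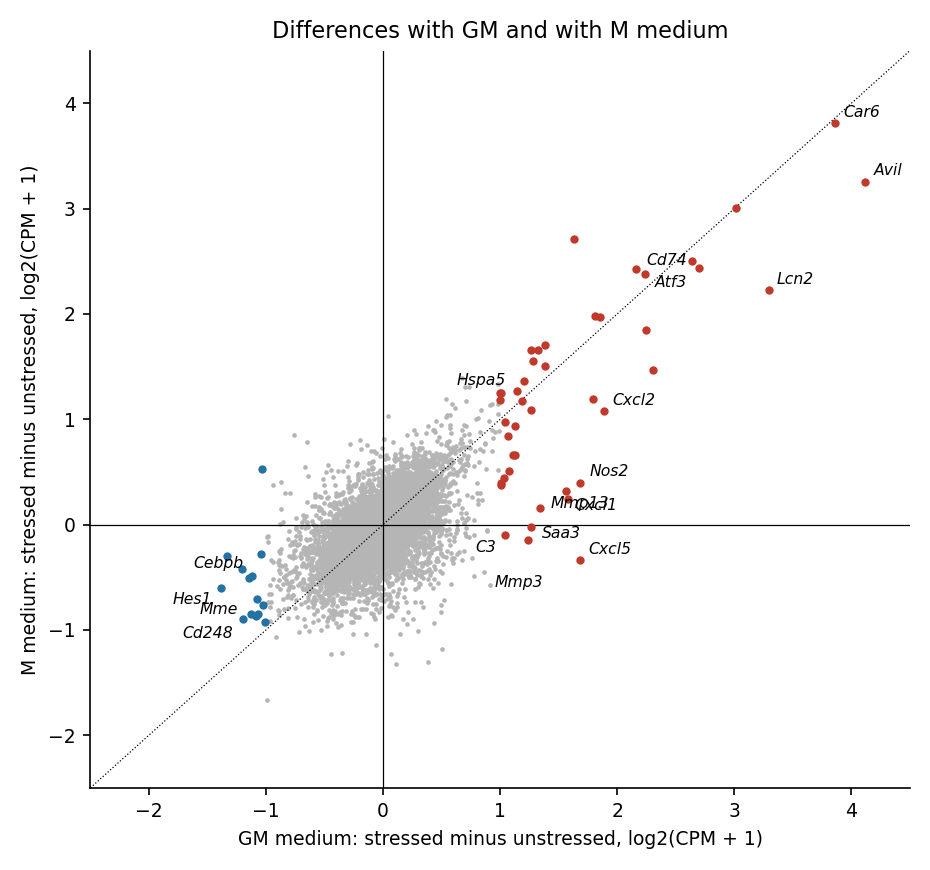
Difference of log2(CPM + 1), stressed minus unstressed medium, with GM medium (x axis) and with M medium (y axis), 1 point per gene; the dotted line marks equal differences, red the 44 and blue the 14 genes past 2-fold with GM medium. Car6, Atf3, Cd74 and Hspa5 lie near the dotted line, and Cxcl5, Cxcl1, Nos2, Saa3 and C3 lie near 0 on the y axis. Nos2 and Saa3 had at most 14 counts in either M-medium library.

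One fit drew on all 5 libraries, with terms for the kind of macrophage, for stressed macrophages and for medium against none. Its stressed-medium term is 1 common effect fitted to the GM and M pairs together. It need not equal the mean of their differences: for C3 it was 0.67, with differences of 1.04 and -0.10. Its error comes from how far the pairs disagree, at 1 residual degree of freedom per gene, so it is no test of the GM difference alone. In edgeR's fit the estimated prior degrees of freedom were infinite, so genes of like abundance shared 1 estimate of the spread and a gene's own disagreement did not enter its p-value. The p-values measure only the spread between these libraries, and nothing in the labels says whether that spread is biological. At a Benjamini-Hochberg adjusted p under 0.05, edgeR (quasi-likelihood) called 1441 genes (12.9%) higher and 1215 (10.9%) lower, whereas DESeq2 called 308 (2.75%) and 168 (1.5%). The term was 1.21 ± 0.048 (SE) on the log2 scale for Hspa5 (edgeR adjusted p = 8.2e-134, DESeq2 adjusted p = 1.2e-86) and 2.46 ± 0.128 for Atf3 (edgeR adjusted p = 3.3e-77). Of the ER chaperone list 25 of 27 genes rose and 0 fell by edgeR, and 21 rose by DESeq2. Of the integrated stress response list 13 rose and 7 fell by edgeR, against 4 and 2 by DESeq2. NF-kB genes had 10 rising by edgeR and 1 by DESeq2, and cholesterol genes 14 and 6. DESeq2 gave no adjusted p for Lcn2, Cxcl2, Cxcl5, Nos2 and Saa3 of the NF-kB list, nor for Atf3. Cxcl1, Ccl2 and C3 did have an adjusted p and were not called by DESeq2, though edgeR called each of them higher. Mitosis genes had 9 falling by edgeR and 2 by DESeq2. In the matrix list 2 rose and 12 fell by edgeR, against 0 and 6 by DESeq2. The 44 higher and 14 lower genes of the GM pair had 43 and 13 called in the same direction by edgeR, but they are part of the data fitted; 9 and 2 of them had an adjusted p in DESeq2, which gave none for 4122 of the 11190 genes, and 7 and 2 were called.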

How the data were processed

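Total RNA, taken with Trizol per the labels' protocols, was sequenced in 9 libraries, of which the 5 of LLC cells were used (1 per group); the 4 macrophage libraries served for marker levels. Deposited read counts per gene were whole numbers; FPKM was deposited beside them and is quoted for Hspa5 alone. Cutadapt 1.15, HISAT2 and TopHat2 2.1.0 were named in the submitters' processing notes, with no role; no source here names the counter, its strand setting or the genome build. GENCODE M21 (GRCm38) holds 21817 of the table's IDs, 99.1% at equal coordinates, so positions are given for GRCm38.

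From the deposited counts, CPM was derived with TMM library sizes (edgeR 4.0.16, R 4.3.3). Differences are log2(CPM + 1) with a pseudocount of 1 CPM, which understates changes of low genes. Folds are CPM ratios with exact Clopper-Pearson intervals at 95%. The fit across libraries used edgeR's quasi-likelihood test, with DESeq2 1.42.0 as an alternative, and was tested on simulated data. Its common coefficient of variation was 4.23%, and its prior degrees of freedom were infinite. Other alternatives changed the scaling, the pseudocount, the filter and the libraries fitted.

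Named genes were the 15 largest differences per direction reaching 5 CPM in 1 of the pair, leaving out predicted, clone-derived and pseudogene symbols, up to 4 members per list, and 16 fixed genes. The comparison and the lists were chosen with earlier results of these data known, and other genes printed were chosen after their values were seen. A symbol on 2 lines stands for the line with more reads. Some genes that this rule names are not reported here.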

Additional observations from a re-analysis of the deposited data

Results flagged for a closer look

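Mmp3 and Irf9 had opposite directions with the 2 kinds of medium, with counting intervals of both folds that exclude 1. The log2 difference of Mmp3, a matrix-degrading stromelysin, was 0.86 with GM medium and -0.45 with M medium. That of Irf9, a subunit of the interferon-responsive complex ISGF3, was 0.44 with GM medium (6.17 and 8.75 CPM) and -0.42 with M medium (8.65 and 6.21 CPM). Irf9 overlaps Rnf31 on the same strand. Each direction rests on 1 library per group, and the difference between the 2 media was not tested.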

How the results depend on the processing

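With a pseudocount of 0.5 CPM, 41 genes were at least 2-fold lower instead of 14, while the count of higher genes stayed within 1.5 times of 44. The balance of higher to lower genes thus depends on the pseudocount. With a mean of at least 5 CPM required, 24 were higher and 8 lower. With the nearer bound of the counting interval at 2-fold, 3 lower genes remained past the threshold. In the fit across libraries DESeq2 called 308 genes higher and 168 lower, against 1441 and 1215 by edgeR; the cause was not tested. The median of the 5 fibroblast markers moved from -0.50 to -0.26 with no filter, which admits members near 0 reads. DESeq2 size factors and total reads kept both counts of genes past 2-fold within 1.5 times and moved the median of all genes by 0.007 and -0.010; under these settings and the other pseudocount, 142 of 142 named genes kept their direction. No paired analysis was possible because each group held 1 library and the labels give no replicate numbers, so no library could be left out within a group either. Depth limits low genes most: 3 counts are 0.195 CPM with unstressed and 0.189 CPM with stressed GM medium.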

Other observations

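Lists not described above had members in both directions. Among all genes 49.2% were above 0 and 0.518% past 2-fold. Of 19 NRF2 antioxidant genes 12 were above 0 with stressed GM medium, with a median of 0.06, and 1, the Slc7a11 described above, was past 2-fold. Hmox1, heme oxygenase 1, read 42.4 CPM untreated, 40.9 and 75.9 with the GM media and 47.5 and 81.6 with the M media (GM fold 1.85, 1.68 to 2.04). Txnrd1, thioredoxin reductase 1, was 1.29-fold higher, while Nqo1, a classical target of the same factor, was 1.37-fold lower (16.3 and 11.9 CPM) and the glutathione transferase Gsta4 1.58-fold lower (41.4 and 26.3 CPM). Among 11 heat shock genes, a list that also holds the mitochondrial chaperonin Hspd1, 8 were above 0 with a median of 0.09. Hspd1 was 1.3-fold higher (1205 and 1565 CPM), and Hspa1b, the inducible cytosolic Hsp70, read 12.1 and 12.7 CPM.

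DNA replication genes had 14 of 23 members above 0 (median 0.08), aminoacyl-tRNA synthetases 7 of 12 (0.03) and p53 and apoptosis genes 10 of 18 (0.07). Lysosome and autophagy genes had 14 of 21 (0.08) and mitochondrial mRNAs 7 of 11 (0.02). Each of these lists had 0 past 2-fold (all genes: 0.518%). Among 17 angiogenic and growth ligands Areg was past 2-fold, Hbegf, another EGF receptor ligand, was 1.60-fold higher (8.64 and 13.9 CPM) and Angpt1, the ligand of the Tie2 receptor, 1.57-fold lower (15.8 and 10.1 CPM). The neutrophil marker list had 0 of 11 members past the minimum, and the markers of GM-cultured macrophages summed to 1.36 and 1.13 CPM.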
